A study of Mus musculus with 3 samples.

Results

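Stroma4 is 1 of 10 clusters of non-immune stromal cells that were told apart by single-cell RNA sequencing of mouse melanomas. Its members are the cells to which the deposited cluster table gives that name. There were 1445 of them among 12670 cells: 599 in an untreated tumor, 826 in a tumor that had progressed on vemurafenib and 20 in a tumor that had regressed on it. Vemurafenib, which blocks the kinase activity of Braf V600E, was given by oral gavage. All 3 tumors arose on the C57BL/6 background in the skin of mice that carry Braf LSL.V600E and Tyr.CreER, among other alleles, with or without a Rosa26 LSL.tdTomato reporter, after 4-OH tamoxifen was put on the flank. The Tyr promoter drives the recombinase in melanocytes, so stromal cells of these animals were not the target of recombination. Each group held 1 tumor. No spread between animals can therefore be given, no test between groups was made, and every 95% interval below covers counting error only. The 20 cells of the regressed tumor held 24748 unique molecular identifiers (UMIs, each counting 1 captured RNA molecule) in all, so the comparisons are between the untreated and the progressed tumor, with 2574017 and 3668461 UMIs in Stroma4 and medians of 3985 and 3978 UMIs per cell.

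Fibroblasts of the skin lay down the collagens and proteoglycans of the dermis. Around each nerve fascicle lies the perineurium, a sheath of flat cells that derive from fibroblast-like precursors, are joined by tight junctions, rest on a basement membrane and take up glucose through the transporter Slc2a1. Genes named here as perineurial are those known from that sheath. They describe a gene list and do not name the cluster.

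Stroma4 made up a similar part of the stroma in both tumors. It held 22.8% of 2628 stromal cells in the untreated tumor (exact Clopper-Pearson 95% interval 21.2 to 24.4%) and 24.1% of 3422 in the progressed tumor (22.7 to 25.6%), and these intervals overlap. In the regressed tumor its share was 1.04% of 1918 stromal cells (0.638 to 1.61%). Other clusters were more uneven: Stroma1 held 472 untreated and 0 progressed cells, and Stroma6 held 83 untreated and 1255 progressed cells. Shares depend on which cells the digestion released and the droplets captured.

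The UMIs of a gene were summed over the cells of a cluster and scaled to 1000000 UMIs in all (CPM), and 2 such levels are compared by their log2 ratio. The 6 genes that mark Stroma4 were all higher in it than in the other 9 Stroma clusters together, in both tumors. A cluster is defined by such genes, so these contrasts describe it and are no test. Krt19, a keratin of simple epithelia, was at 80.0 CPM in untreated Stroma4 and 89.7 CPM in progressed Stroma4, against 1.83 and 1.22 CPM in the other Stroma clusters. Slc6a13, a transporter of GABA and taurine (Entrez 14412, chr6:121300288-121337721), was at 46.2 and 62.2 CPM, against 0.782 and 1.80 CPM. Both genes were thus close to absent from the rest of the stroma of these tumors. Cluster Stroma10 of the regressed tumor, however, held 87.7 CPM of Krt19 and 22.2 CPM of Slc6a13. Wnt6, a secreted Wnt ligand, was at 243 and 222 CPM, against 29.6 and 33.0 CPM. Sfrp5, a secreted antagonist of Wnt ligands, was at 348 CPM in the untreated tumor and 54.5 CPM in the progressed one, against 17.5 and 1.36 CPM. Wfdc1, a secreted protein with a WAP-type domain (chr8:119666365-119688020), was at 160.4 and 116 CPM, against 32.5 and 23.0 CPM. Fgf1, a fibroblast growth factor, was at 66.4 and 70.6 CPM, against 23.3 and 12.6 CPM. It was the least separated of the 6 in the untreated tumor (log2 ratio 1.51), and Wfdc1 was in the progressed tumor (2.34).

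**Figure D1:**
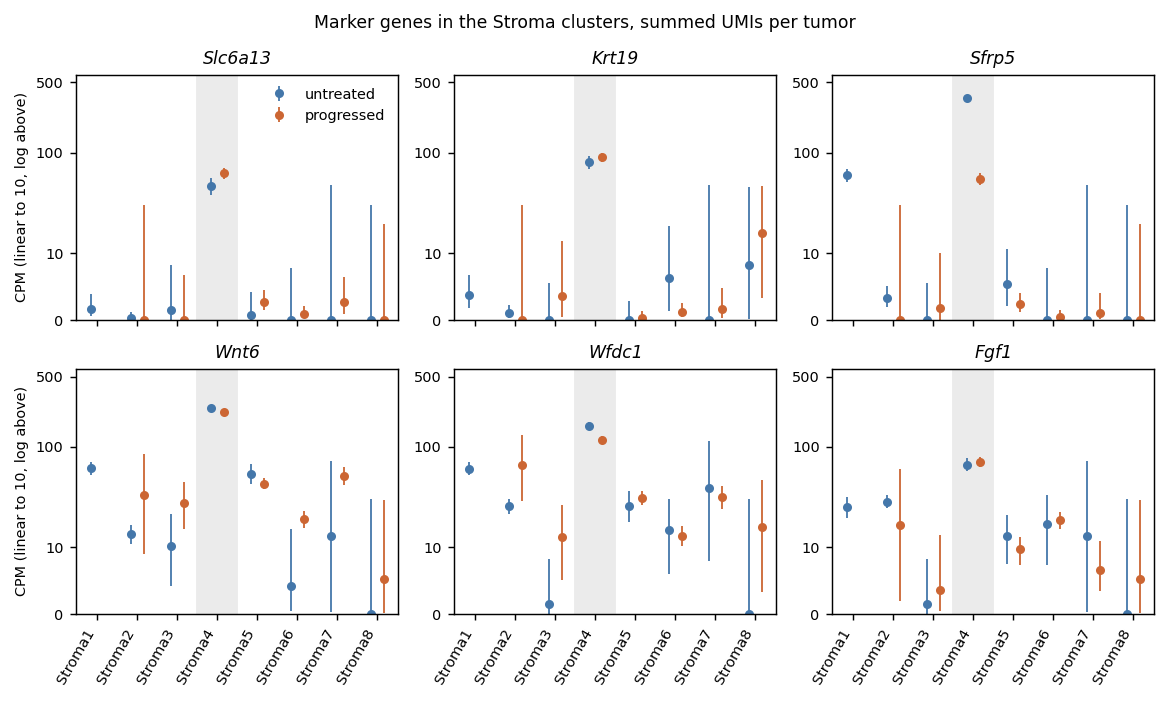
Levels of the 6 marker genes (y axis, CPM of summed UMIs, linear to 10 and logarithmic above) in each Stroma cluster with at least 10 cells (x axis), in the untreated (blue) and progressed (orange) tumor, with exact Poisson 95% intervals. Stroma4 (shaded) was the highest cluster for every gene in both tumors, and Sfrp5 stood at 348 CPM in the untreated and 54.5 CPM in the progressed tumor.

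Against single clusters the order was the same. Stroma4 ranked first of 8 Stroma clusters with at least 10 cells in the untreated tumor, and first of 7 in the progressed tumor, for each of the 6 genes. The nearest level for Wnt6 was 61.0 CPM in untreated Stroma1 and 51.1 CPM in progressed Stroma7, and for Sfrp5 it was 59.3 CPM in untreated Stroma1. Outside the stroma, Sfrp5 was not particular to Stroma4: the cells of cluster Tumor1 held 394 CPM in the untreated and 241 CPM in the progressed tumor. Over all genes, the log2 levels of Stroma4 were most like those of Stroma1 and Stroma5 in the untreated tumor (Pearson r of 0.918 and 0.908 across 6612 genes) and of Stroma5 and Stroma7 in the progressed tumor (0.928 and 0.910 across 6593 genes). These values are across genes of 1 library, which are not independent replicates.

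Wnt6 and Sfrp5 are shown with their promoters because they part in the comparison of tumors, where the level of the ligand was nearly equal and that of the antagonist was lower in the progressed tumor. The windows run from 250 bases before to 50 bases after a RefSeq start site (build GRCm38.p6), at chr1:74771642-74771941 on the plus strand for Wnt6 and chr19:42202203-42202502 on the minus strand for Sfrp5. Capitals mark matches, on either strand, to CCNCNCCC, the letters bound by Klf and Sp factors, chosen because Klf5 is among the leading genes of Stroma4.
Wnt6: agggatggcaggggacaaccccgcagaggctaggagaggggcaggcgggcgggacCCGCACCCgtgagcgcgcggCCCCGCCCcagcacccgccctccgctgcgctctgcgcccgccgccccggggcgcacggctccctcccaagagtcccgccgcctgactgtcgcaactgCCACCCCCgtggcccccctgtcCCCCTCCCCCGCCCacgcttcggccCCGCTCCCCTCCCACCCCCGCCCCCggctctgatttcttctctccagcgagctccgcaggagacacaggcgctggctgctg
Sfrp5: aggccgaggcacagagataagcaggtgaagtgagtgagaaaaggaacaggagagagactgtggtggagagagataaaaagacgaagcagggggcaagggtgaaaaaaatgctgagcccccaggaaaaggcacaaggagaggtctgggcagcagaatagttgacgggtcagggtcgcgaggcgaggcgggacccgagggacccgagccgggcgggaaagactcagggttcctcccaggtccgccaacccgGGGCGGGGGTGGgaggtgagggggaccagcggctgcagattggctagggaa
The Wnt6 window held 11 matches, many of them overlapping, and the Sfrp5 window held 2. Such matches are common: 49.1% of 27025 promoters of the same length held at least 1, and 12 of the 15 leading genes of Stroma4 with a promoter in the table did. The AP-1 letters TGANTCA matched in neither window and in 7.93% of all promoters. A match is a description of the letters and not of a bound site.

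The wider profile of Stroma4 was shared by both tumors in part. A gene was compared where at least 1 of the sums held 20 CPM and 10 UMIs, which 7225 genes met in the untreated tumor. Of these, 294 (4.07%) were higher in Stroma4 than in the other Stroma clusters past a log2 ratio of 1 and 427 (5.91%) were lower. In the progressed tumor 7051 genes were compared, with 195 (2.77%) higher and 243 (3.45%) lower. Of the 294 and 195 higher genes 124 were higher in both tumors, and of the 427 and 243 lower genes 151 were lower in both, out of 6667 that reached the minimum in both. The 25 genes that led in both tumors included genes of glucose transport and of adhesion to laminin. Slc2a1, the glucose transporter, was at 216 and 119.7 CPM in untreated and progressed Stroma4, against 14.5 and 12.4 CPM in the other clusters. Itga6 and Itgb4, the subunits of a laminin receptor, were at 178 and 165 CPM in the untreated tumor and at 199.5 and 99.2 CPM in the progressed tumor, against 11.04 to 22.4 CPM elsewhere in the stroma. Tenm2, a teneurin that takes part in cell adhesion, was at 109.6 and 55.3 CPM, against 12.5 and 9.48 CPM.

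Among the other leading genes, Igfbp6, a binding protein of insulin-like growth factors, was by far the most abundant, at 4101 and 4034 CPM against 690 and 1008 CPM, although the 21 cells of progressed Stroma8 held more of it (5526 CPM). Klf5, a Krüppel-like transcription factor, was at 480.2 and 305 CPM, against 60.9 and 72.8 CPM. Pthlh, the parathyroid hormone-like peptide, was at 92.1 and 57.5 CPM, against 18.5 and 13.3 CPM. Spink1, a trypsin inhibitor, was at 72.3 and 85.0 CPM, against 0.956 and 3.38 CPM. Cav1 and Cavin2, components of caveolae, were at 1062 and 83.1 CPM in untreated Stroma4 and at 1473 and 116 CPM in progressed Stroma4. The remaining leading genes included Wfdc1, Serpinb6c, Acer3, Dapk2, Mustn1, Mtss1, Rasd1, Sulf2, Gsta4, Ildr2 and Mras, with log2 ratios of 1.71 or more in both tumors. For Mustn1 other clusters were higher, led by untreated Stroma6 at 211 CPM and progressed Stroma8 at 252 CPM.

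The 10 genes lowest in Stroma4 against the other Stroma clusters included Eln and Dpt, both of the extracellular matrix. Eln, the gene of elastin, was at 5.44 and 4.09 CPM in Stroma4, against 130.4 and 72.5 CPM in the other Stroma clusters. Dpt, an extracellular matrix protein of the dermis, was at 12.0 and 13.9 CPM, against 295 and 182 CPM. Sod3, the secreted superoxide dismutase, was at 10.1 and 5.18 CPM, against 266 and 52.5 CPM. Hsd11b1, Pla1a, Ly6c1, Ptx3, Angpt2, Crispld2 and Spon1 completed the 10 lowest genes, each with a log2 ratio of -2.79 or below in both tumors.

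**Figure D2:**
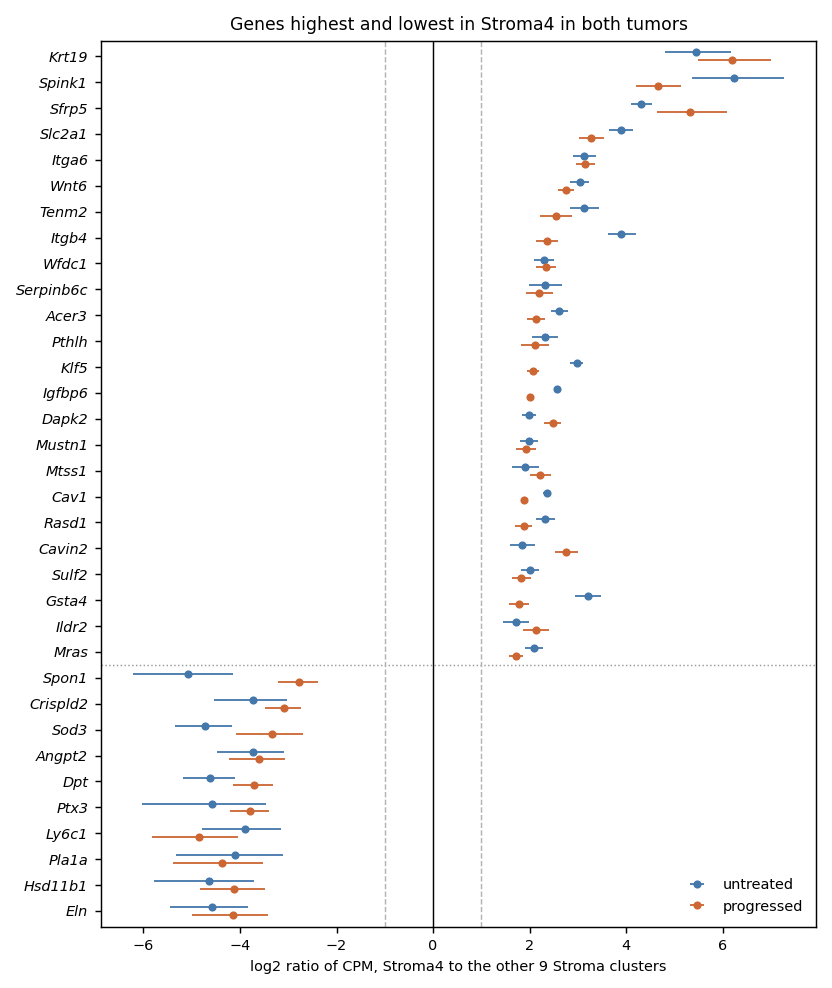
Log2 ratio of CPM in Stroma4 to the other 9 Stroma clusters (x axis) for the genes highest (all but 1 of the 25) and the 10 genes lowest in both tumors (y axis), with exact 95% intervals. Untreated values are blue and progressed values orange, dashed lines mark ratios of -1 and 1, and Krt19 reached 5.45 and Eln -4.58 in the untreated tumor.

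The labels of cell type were then checked against marker lists. All 13 genes of a fibroblast list had UMIs in Stroma4, and Dcn, the proteoglycan decorin, reached 17369 CPM in the untreated tumor and 13381 CPM in the progressed one. Col1a1 was at 3519 and 4683 CPM and Pdgfra, a receptor of platelet-derived growth factor, at 110.3 and 117 CPM. Against the other Stroma clusters, however, 10 of the 13 were lower past the fold in the untreated tumor and 4 in the progressed tumor, and 0 were higher. The shares lower over all genes compared were 5.91% and 3.45%. Of 12 perineurial genes, 11 reached the minimum level. Of these, 11 were higher past the fold in the untreated and 10 in the progressed tumor, against 4.07% and 2.77% of all genes compared. That list shares Krt19, Wnt6, Sfrp5 and Slc6a13 with the markers of the cluster. Slc2a1, Itgb4 and Tenm2, also on it, are among the 25 genes that lead Stroma4 in these data. The list is therefore not independent of the cluster's own top genes, and its counts are no test. Of its other members, Cldn1, a tight junction protein, was at 460 and 343 CPM against 133 and 118.5 CPM, and Ntn4 was near 0 at 1.55 and 1.09 CPM. Crabp2 and Moxd1 were at 45.1 and 29.1 CPM in untreated Stroma4 and at 31.6 and 25.4 CPM in progressed Stroma4.

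Markers of other cells were low with a few exceptions. Of 7 mesothelial genes, 6 had 0 UMIs in Stroma4 of each tumor. The keratins Krt8 and Krt18 had 0 UMIs, which allows up to 1.17 CPM in the untreated and 0.818 CPM in the progressed tumor. The myelin gene Mbp was at 0 UMIs in the untreated tumor and at 0.545 CPM in the progressed one, and Sox10 was at 1.94 and 1.36 CPM. S100b, also listed for Schwann cells, was at 137 and 76.6 CPM. The endothelial genes Pecam1 and Kdr were at or below 2.33 CPM. Cdh5, the cadherin of vessel walls, was at 178 and 112 CPM, against 65.9 and 28.9 CPM in the other Stroma clusters. The blood vessel cluster held 751 and 669 CPM of it. Cdh5 and Emcn, the 2 endothelial genes compared, were both higher past the fold in the untreated tumor, and 1 was in the progressed tumor. The 6 on the list summed to 258 and 141 CPM, against 116 and 53.7 CPM in the other Stroma clusters. Keratinocyte genes summed to 219 and 332 CPM, against 205 and 291 CPM in the other Stroma clusters. Their part in the results was not tested.

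Most compared members of a list of 15 cell junction genes, which includes Cldn1, were higher in Stroma4. Of the 8 that reached the minimum, 6 were higher past the fold in untreated and 4 in progressed Stroma4. Over all genes compared, 4.07% and 2.77% were. The list had a median log2 ratio of 1.48 and 1.06, against 0.10 and 0.15 over all genes compared. Tjp1, a scaffold of tight junctions, was at 95.6 and 87.8 CPM against 34.3 and 39.4 CPM, and Jup, plakoglobin, at 78.5 and 83.1 CPM against 28.0 and 26.7 CPM. The connexin Gja1 went the other way, at 14.4 and 19.9 CPM against 42.9 and 45.0 CPM. All 7 fibrillar collagens were lower in Stroma4 past the fold in the untreated tumor (median log2 ratio -1.35). In the progressed tumor all 7 were still below the other clusters, 1 of them past the fold (median -0.81). Chemokines and cytokines were lower too: 9 of 14 past the fold in the untreated tumor and 5 of 14 in the progressed tumor, with 0 higher past it in either. Among all genes compared, 5.91% were lower past the fold in the untreated tumor and 3.45% in the progressed tumor.

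Expression of the markers was uneven from cell to cell. At least 1 UMI of any of the 6 markers was found in 80.1% of the 599 untreated and 73.6% of the 826 progressed Stroma4 cells, against 32.3% and 26.2% in the other Stroma clusters and 4.81% and 4.42% in macrophages, which should lack them and had median depths of 3429 and 3450 UMIs. Since these shares depend on depth, each cell was also thinned to 1000 UMIs, which left out 6 untreated and 12 progressed Stroma4 cells. The shares were then 47.2% and 40.8% in Stroma4, 9.32% and 6.57% in the other Stroma clusters and 1.64% and 0.904% in macrophages. Wnt6 was the most widely detected marker, in 20.7% of thinned untreated and 21.6% of thinned progressed Stroma4 cells (58.9% and 50.7% before thinning). Krt19 was found in 5.06% and 5.77% of thinned cells (12.5% and 13.3% before thinning), with macrophages at 0.329% and 0.301%.

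**Figure D3:**
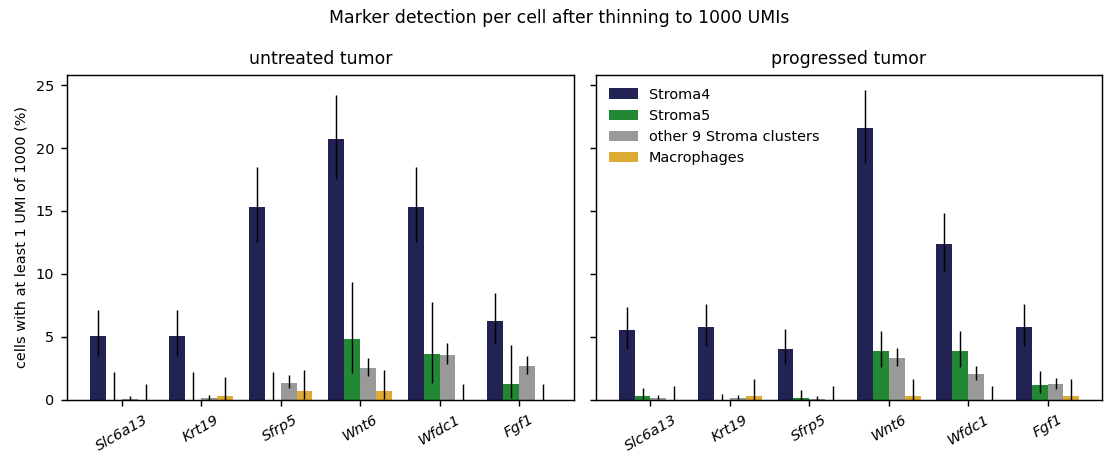
Share of cells with at least 1 UMI of each marker after every cell was thinned to 1000 UMIs (y axis, percent) in Stroma4, Stroma5, all other Stroma clusters together and macrophages, with exact Clopper-Pearson 95% intervals. Wnt6 was found in 20.7% of untreated and 21.6% of progressed Stroma4 cells, and Sfrp5 in 15.3% and 4.05%.

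Krt19 and Sfrp5 were concentrated in few cells. Single Stroma4 cells held up to 14 UMIs of Krt19 in the untreated and 16 in the progressed tumor, and the 15 and 26 cells with at least 5 UMIs held 52.9% and 61.1% of all its UMIs. For Wnt6, cells with at least 5 UMIs held 8.32% and 15.7%. The cells with Krt19, which were singled out after the values were seen, also carried more of other leading genes. In the untreated tumor, 65.3% of the 75 cells with a UMI of Krt19 had one of Sfrp5, against 21.6% of the 524 cells without, and 74.7% had one of Slc2a1, against 31.7%. In the progressed tumor the shares were 33 of 110 cells against 3.91% of 716 for Sfrp5, and 55.5% against 16.6% for Slc2a1. Col1a1 ran the other way, at 1979 CPM in untreated cells with Krt19 against 3770 CPM in those without, and at 2939 against 4992 CPM in the progressed tumor. Median depths were 4462 and 3836 UMIs in untreated and 4384 and 3915 UMIs in progressed cells with and without Krt19, so detection was somewhat easier in the cells with it.

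The comparison of tumors asks how these cells differed after relapse on vemurafenib. Between the untreated and the progressed tumor, 7206 genes were compared in Stroma4, of which 188 (2.61%) were higher in the progressed tumor past a log2 ratio of 1 and 137 (1.9%) were lower. In the other 9 Stroma clusters together the shares were 2.39% higher and 2.62% lower of 6975 genes, and there the makeup by cluster also differs between tumors. Of the 188 higher genes 63 were also higher past the fold there, and of the 137 lower genes 58 were also lower. Within Stroma5 these counts were 70 and 43. The median log2 ratio over all genes in Stroma4 was 0.04. Of the 6 markers, 5 stayed within a log2 ratio of -0.46 to 0.43. Krt19 differed by 0.16 (95% interval -0.09 to 0.42), Wnt6 by -0.13 (-0.28 to 0.02) and Fgf1 by 0.09 (-0.20 to 0.37), and these intervals include 0.

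Sfrp5 was the exception, with a log2 ratio of -2.67 (-2.90 to -2.45) and 895 UMIs in the untreated against 200 in the progressed tumor. It was found in 15.3% of thinned untreated and 4.05% of thinned progressed cells, and the cells that held it had a mean of 5.52 and 3.28 UMIs. The ratio in the other Stroma clusters was -3.68, from a far lower level. Of the other Wnt antagonists, Sfrp4 was lower as well, at 39.6 and 14.2 CPM, whereas Sfrp1 was at 139.9 and 108 CPM and Dkk3 at 62.2 and 58.6 CPM. Wnt10a, a second ligand that was higher in Stroma4 than elsewhere in the stroma, was at 50.1 and 30.3 CPM. Axin2, a general target of Wnt signaling, was at 6.22 and 10.6 CPM, below the minimum. In all, 7 of 26 Wnt genes reached the minimum in this comparison, 2 were lower past the fold and 0 were higher.

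Perineurial genes were mostly somewhat lower in progressed Stroma4. Of the 11 that reached the minimum, 9 had a ratio below 0, 1 of them past the fold (Sfrp5), and the median was -0.42. The summed list stood at 1791 CPM in the untreated and 1140.3 CPM in the progressed tumor, a log2 ratio of -0.65. Without Sfrp5, which held much of that difference, the sums were 1444 and 1086 CPM and the ratio was -0.41 (-0.48 to -0.35). Slc2a1 differed by -0.85 (-1.03 to -0.67), Itgb4 by -0.73 (-0.94 to -0.53) and Tenm2 by -0.99 (-1.25 to -0.72). In the other Stroma clusters, where these genes are rare, the ratios were -0.23, 0.81 and -0.40. F11r, a junctional adhesion molecule, was at 90.9 CPM in untreated and 44.4 CPM in progressed Stroma4 (log2 ratio -1.03, -1.33 to -0.74).

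Hedgehog signaling is relayed by the receptor Ptch1, itself a target of the pathway, and by Gli factors. Ptch1 was at 398 CPM in untreated and 171 CPM in progressed Stroma4 (log2 ratio -1.22, -1.37 to -1.08), against 98.1 and 69.2 CPM in the other Stroma clusters. Gli1 was at 93.2 and 75.2 CPM and the co-receptor Boc at 56.3 and 30.3 CPM. Gli2, Gli3, Smo and Cdon differed by -0.03 to 0.41. Ptch1 alone of the 7 members compared was lower past the fold, and 0 were higher. Within single clusters, Ptch1 was also lower in progressed than untreated Stroma5 (148 and 88.2 CPM) and Stroma3 (212 and 87.0 CPM).

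The 15 genes highest in progressed Stroma4 had diverse roles. Ptn, the growth factor pleiotrophin, was at 19.8 CPM in untreated and 294 CPM in progressed Stroma4 (log2 ratio 3.89, 3.49 to 4.33), and its ratio in the other Stroma clusters was 1.75. Tagln, an actin-binding protein of smooth muscle and myofibroblasts, was at 12.4 and 99.5 CPM (95% interval of the log2 ratio 2.48 to 3.57), with a ratio of 0.70 elsewhere in the stroma. Ccl2, a chemokine that attracts monocytes, was at 103 and 572 CPM (2.47, 2.29 to 2.66). For these genes Stroma4 lay below the other clusters in the untreated tumor, and Ptn and Tagln lay above them in the progressed tumor. Mmp3, a matrix protease, was at 27.2 and 113 CPM in Stroma4 and at 467 and 469 CPM elsewhere. It thus differed between tumors in Stroma4 and hardly at all in the summed rest, whose makeup by cluster differs between tumors. Vcan, the large proteoglycan versican, was at 16.3 and 77.4 CPM, and Fbn2, a fibrillin, at 118 and 378 CPM. Tnfrsf12a, the receptor of the cytokine Tweak, was at 79.3 and 342 CPM. Lbhd2, Mt2, Medag, Ybx1, Ifi27l2a, Plvap, Myadm and Pilra completed the 15 genes, with log2 ratios of 1.76 to 2.19.

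The genes lowest in the progressed tumor included genes known from neutrophils and genes of secreted stromal proteins. S100a8 and S100a9, abundant calcium-binding proteins of neutrophils, were at 345 and 319.7 CPM in untreated and at 2.73 and 3.54 CPM in progressed Stroma4. The other Stroma clusters held nearly the same levels, 339 and 305 CPM in the untreated and 2.59 and 1.51 CPM in the progressed tumor, and the libraries held 391 and 4 neutrophils. Il1b was at 57.5 and 2.73 CPM, and Retnlg had 154 and 0 UMIs, so that its log2 ratio was -6.19 or lower. The haemoglobin gene Hbb-bs showed the same, at 33.8 and 1.09 CPM in Stroma4 and 30.9 and 0.287 CPM elsewhere. The 3 neutrophil genes of the marker list summed to 667 and 6.27 CPM in Stroma4 and to 646 and 4.24 CPM in the other Stroma clusters. Csf3r, the receptor of granulocyte colony-stimulating factor, was the member with 0 UMIs in progressed Stroma4. The part that RNA of neutrophils and red blood cells plays in these values was not tested.

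The other genes included several of secreted proteins. Saa3, an acute phase protein, was at 62.5 and 0.818 CPM in Stroma4, and at 1632 and 3.16 CPM in the other Stroma clusters. In the untreated tumor a UMI of Saa3 was found in 20.5% of Stroma4 cells and 24.4% of macrophages (6.07% and 9.21% after thinning). The part that RNA of other cells plays in the Saa3 level of Stroma4 was not tested. Gpx3, the secreted glutathione peroxidase, was at 346 and 27.3 CPM (log2 ratio -3.66, -3.98 to -3.37), against a ratio of -1.02 elsewhere. After thinning, Gpx3 was found in 16.2% of untreated and 1.84% of progressed Stroma4 cells, and in 12.5% and 18.7% of macrophages. C3, the central complement component, was at 95.6 and 8.45 CPM (-3.50, -4.09 to -2.96). Aqp1, a water channel, was at 53.2 and 6.27 CPM, Vtn, vitronectin, at 92.9 and 14.99 CPM, and Clec3b, tetranectin, at 148 and 30.5 CPM. Igfbp5 was at 139.9 and 35.2 CPM, and Serpina3n, a protease inhibitor, at 67.6 and 13.6 CPM. C3, Aqp1 and Igfbp5 were also found less often in the rest of the progressed stroma. After thinning, 19.1%, 6.63% and 14.5% of untreated cells of the other Stroma clusters held them. In the progressed tumor the shares were 3.40%, 0.967% and 5.49%. Gcg, the gene of glucagon, was at 74.98 and 16.1 CPM in Stroma4 and at 21.1 and 32.0 CPM elsewhere. Gm12216, a predicted gene, was at 228 and 49.3 CPM.

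**Figure D4:**
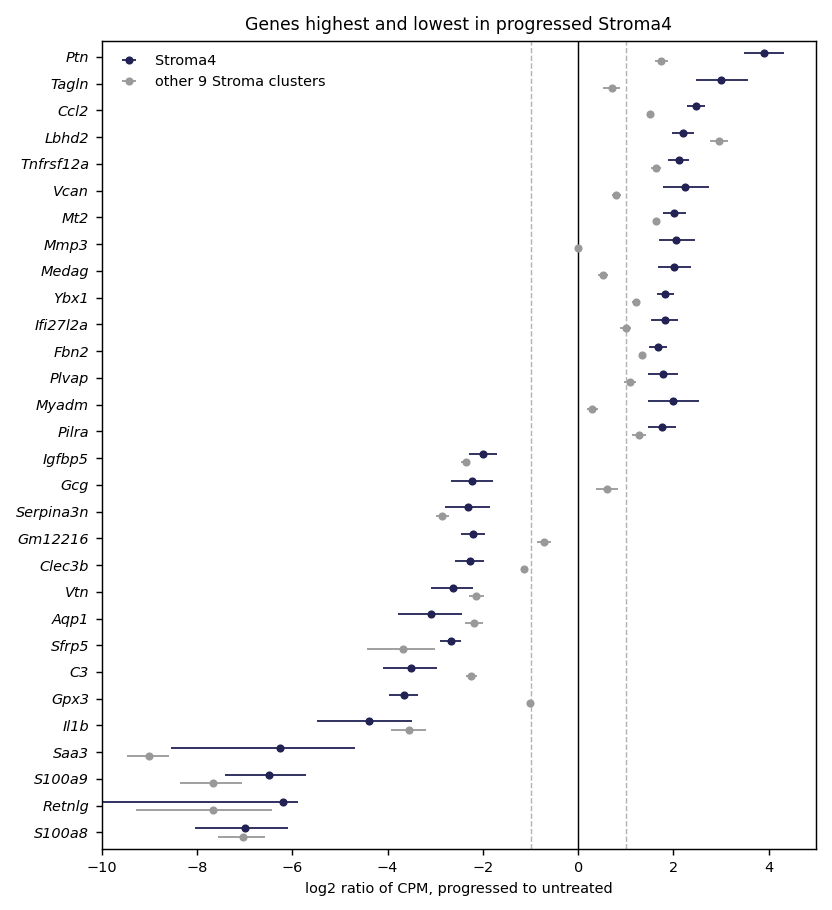
Log2 ratio of CPM in the progressed to the untreated tumor (x axis) for the 15 genes highest and the 15 genes lowest in progressed Stroma4 (y axis), in Stroma4 (dark) and in the other 9 Stroma clusters (grey), with exact 95% intervals. Dashed lines mark ratios of -1 and 1. The Stroma4 interval of Retnlg, which had 0 UMIs in the progressed tumor, has no lower end. Ptn reached 3.89 in Stroma4 and 1.75 elsewhere, and S100a8 reached -6.98 and -7.04.

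All 7 fibrillar collagens were above 0 in progressed against untreated Stroma4, 0 of them past the fold, with a median log2 ratio of 0.49 against 0.04 over all genes compared. Col1a2 was at 5042 and 7084 CPM and Col3a1 at 4232 and 5536 CPM. In the other Stroma clusters together 2 of the 7 were above 0 and the median was -0.12. The distance between Stroma4 and that sum was thus smaller in the progressed tumor, but the makeup of the sum by cluster differs between tumors. Of 12 basement membrane genes compared, 9 were above 0 and 2 past the fold: Col4a1 was at 397 and 801 CPM and Col18a1 at 405 and 835 CPM. Laminin chains were mixed, with Lamc1 at 119 and 197 CPM and Lama4 at 125 and 96.8 CPM.

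Targets of TGF-beta, a cytokine that drives matrix production, had the highest median of the lists, 0.89 over 11 members compared, with 4 higher past the fold and 0 lower. The 4 were Tagln, Acta2 (5.44 and 21.0 CPM), Tgfb1i1 (54.0 and 122 CPM) and Ltbp2 (22.5 and 47.7 CPM). Smad7, which is also a direct target, was at 37.7 and 35.2 CPM. In the other Stroma clusters the median was 0.13. The summed list had the other order, with a log2 ratio of 0.26 (0.22 to 0.30) in Stroma4 and 0.52 (0.50 to 0.54) elsewhere. The 6 interferon-stimulated genes compared had a median of 0.82, with 1 higher past the fold (Ifit1, 13.6 and 30.3 CPM), and their median elsewhere was 0.56.

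The 9 MAPK target genes that the study used as a signature showed no common direction in Stroma4. Of the 7 that reached the minimum, 4 were above 0 and 3 below, 0 were past the fold, and the median was 0.21. Etv4 was at 141 and 219 CPM, Dusp6 at 108 and 125 CPM, Phlda1 at 495 and 604 CPM and Etv1 at 36.1 and 19.6 CPM. The summed list had a log2 ratio of 0.27 (0.20 to 0.35) in Stroma4 and 0.38 (0.35 to 0.41) in the other Stroma clusters. In those clusters 5 of the 7 members compared were above 0 and 1 was higher past the fold. That list was chosen in the study that produced these samples.

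Complement, hypoxia and immediate early genes had medians below 0. All 8 complement genes were below 0, 3 of them past the fold, with a median of -0.75 in Stroma4 and -0.90 in the other Stroma clusters. C2 was at 477 and 214 CPM and Serping1, the C1 inhibitor, at 3687 and 2165 CPM. The 8 genes of hypoxia and glycolysis compared had a median of -0.80, while the sum of all 13 on the list had a ratio of -0.23 (1816 and 1553 CPM). The 1 member past the fold was Adm, adrenomedullin, at 132 and 35.2 CPM, and Ldha, a glycolytic enzyme, was at 406 and 518 CPM. Of 8 immediate early genes, 7 were below 0 and 0 past the fold (median -0.42), and Fos was at 7209 and 4810 CPM. Among 12 chemokines and cytokines compared, Ccl2 and Ccl11 were higher past the fold, Saa3 and Cxcl2 were lower, and the median was 0.06.

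All 4 endoneurial genes compared in Stroma4, of 5 on the list, were below 0 (median -0.63). In the other Stroma clusters 3 of 5 compared were below 0, with a median of -0.54. Wif1, a Wnt antagonist and the member under the minimum in Stroma4, was at 19.4 and 0.545 CPM there, and Osr2 was at 40.02 and 11.2 CPM. Among 7 neurotrophic and axon guidance genes, Slit2, a guidance ligand, was higher past the fold (6.99 and 21.3 CPM) and Efna1, an ephrin, was lower (22.5 and 10.9 CPM), with a median of 0.15. Emcn, an endothelial sialomucin, was at 68.8 and 21.8 CPM in Stroma4. In the other Stroma clusters both endothelial genes compared, Cdh5 and Emcn, were lower past the fold as well. Of 6 keratinocyte genes compared in Stroma4, 5 were above 0 and Sfn, stratifin, was past the fold (14.4 and 32.4 CPM). In the other Stroma clusters 5 of 6 were above 0 too, and the medians were 0.58 and 0.47. Of 4 adventitial fibroblast genes compared, Pi16 was higher past the fold and Clec3b lower.

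The remaining lists had medians between -0.38 and 0.51. Medians were 0.51 for 6 genes of the retinoid pathway, 0.26 for 6 of collagen crosslinking, 0.23 for 7 of MHC class I presentation, 0.19 for 5 solute carriers, 0.09 for 3 FGF genes and 0.08 for 7 other growth factors and receptors. They were -0.03 for 11 matrix proteases and inhibitors, -0.08 for 8 genes of the IGF axis, -0.18 for 5 heat shock genes, -0.34 for 8 small leucine-rich proteoglycans and -0.38 for 7 cell junction genes. In these lists Plod2, a collagen lysyl hydroxylase, was higher past the fold (12.4 and 38.2 CPM), as was Timp3, an inhibitor of matrix proteases (133 and 402 CPM), and Mmp3. Igfbp5, Igfbp3 (27.6 and 13.6 CPM) and F11r were lower past the fold. None of 5 cell cycle genes, and none of the macrophage, T cell and dermal papilla markers, reached the minimum in either tumor.

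**Figure D5:**
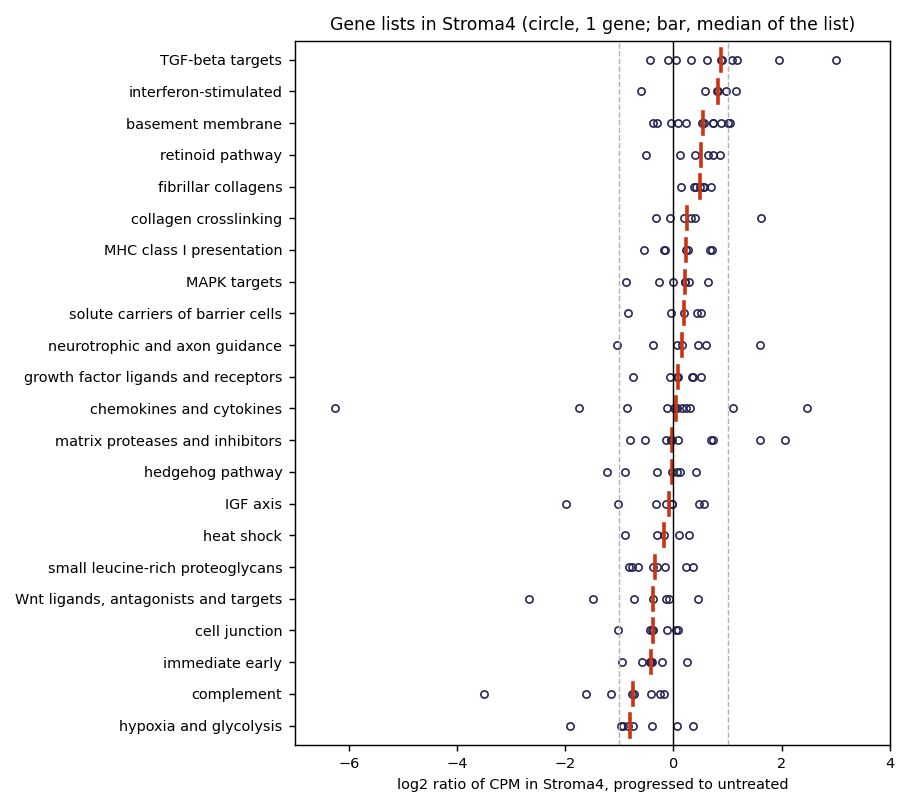
Log2 ratio of CPM in Stroma4 of the progressed to the untreated tumor (x axis) for members of each pathway or family list that reached the minimum level (circles), with the list's median (red bar), for lists with at least 5 such members (y axis). Dashed lines mark ratios of -1 and 1. Medians ran from 0.89 for TGF-beta targets to -0.80 for genes of hypoxia and glycolysis.

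With 1 tumor in each group, differences between the tumors cannot be told apart from differences between animals, libraries or dissociations.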

How the data were processed

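Cells of 3 melanomas were profiled with a droplet kit that counts transcript 3′ ends by UMI. Per the study's methods, tumors were digested with collagenases and trypsin, reads were aligned to GRCm38 with GSNAP, uniquely mapped reads on exons in sense orientation were counted, cell barcodes with enough reads were kept and cells were clustered with Seurat 2.2.0. The annotation release is not given in the sources used here. The deposited values are UMI counts per gene and cell, not normalized, and the deposited cell table gives labels of the other unit (tumor and cluster name) beside total counts. In Stroma4, summed counts lay 4.33% (untreated) and 3.82% (progressed) above the authors' totals per cell. Of 36530 features, 31051 had a symbol. The rest held 3.74% of UMIs and stayed in the totals, and 79 features with the counts of another feature were not named. Each UMI stands for 1 molecule read at its 3′ end, so levels were not corrected for length.

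UMIs were summed over the cells of a cluster and tumor and divided by the sum over all features (CPM), with exact Poisson 95% intervals, and ratios carry exact conditional binomial 95% intervals (scipy 1.17.1). A gene with 0 UMIs was set to 3 UMIs over the group. The fold for a call was a log2 ratio of 1. No tests were made, since each group held 1 tumor and cells are not replicates. Genes named were the 6 markers, the 25 highest and 10 lowest against the other Stroma clusters by the weaker ratio of both tumors (at least 50 CPM), the 15 highest and 15 lowest between tumors by the interval bound nearest 0 (at least 50 CPM and 20 UMIs), and members of the lists. Trf and Col12a1 were singled out after their values were seen. An allele and single genes are not reported here. The members and lists were chosen with earlier results of these data known. No doublet caller was run. Cell barcodes were not used, so barcodes shared between libraries could not be counted. Scripts were tested on simulated data. Alternatives were edgeR 4.0.16 TMM and DESeq2 1.42.0 size factors, other minimum levels, per-cell means, thinning, leaving out the deepest 5% of cells, and leaving out cells with a UMI of the transgene features tdTomato and tWPRE.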

Additional observations from a re-analysis of the deposited data

Results flagged for a closer look

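Trf, the iron carrier transferrin, and Col12a1, a fibril-associated collagen, were the 2 named genes past the fold in opposite directions in Stroma4 and in the other 9 Stroma clusters. The difference was not tested, with 1 tumor per group. Trf was at 372 CPM in untreated and 114 CPM in progressed Stroma4, a log2 ratio of -1.71 (-1.88 to -1.54), and at 656 and 1325 CPM in the other clusters, a ratio of 1.02. Within Stroma5, which held 165 untreated and 754 progressed cells, Trf was at 2281 and 2397 CPM. Col12a1 was at 20.2 and 60.8 CPM in Stroma4, a ratio of 1.59 (1.15 to 2.05), and at 115 and 57.3 CPM in the other clusters, a ratio of -1.01. Within Stroma6 it was at 184 and 93.8 CPM and within Stroma3 at 352 and 252 CPM. Within Stroma5 it was at 12.9 and 17.0 CPM, a ratio of 0.40 (-0.36 to 1.24), so the opposite direction was not seen there.

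The regressed tumor lies outside the comparisons. Its 20 Stroma4 cells held 9 UMIs of Wnt6, or 364 CPM (166 to 690 CPM), above the limit of 121 CPM that 3 UMIs set there. The 6 markers summed to 437 CPM (419 to 456 CPM) in its Stroma10 cluster, against 944 CPM in untreated and 615 CPM in progressed Stroma4 and 105 and 73.0 CPM in the other Stroma clusters of those tumors.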

How the results depend on the processing

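Shares of Stroma4 were 14.6% (untreated) and 17.0% (progressed) of all cells, with intervals that do not overlap, unlike those of its shares of stromal cells. The 188 higher and 137 lower genes became 415 and 339 after thinning to 1000 UMIs, where few UMIs per gene remain, 2135 and 2859 with no minimum beyond 1 UMI, 95 and 62 with a minimum of 50 CPM, and 64 and 60 when the interval bound had to pass the fold. They were 178 to 227 and 133 to 164 under the other 5 settings. The 6 markers' summed log2 ratio to the other clusters was 3.16 in the untreated tumor, and 3.69 with clusters weighted equally, 3.03 as a mean of cells and 3.01 after thinning. In the progressed tumor it was 3.08, and 3.23 after thinning. Between tumors the sum of the 6 markers was -0.62, and -0.51 without the deepest 5% of cells, -0.53 as a mean of cells and -0.45 after thinning. Without Sfrp5, a setting chosen after seeing the data, it was -0.089, so that the difference rests on that gene. For perineurial genes the same were -0.65, -0.58, -0.55 and -0.46, with -0.41 without Sfrp5. For fibrillar collagens they were 0.44, 0.47, 0.39 and 0.40, with 0.49 without cells with a transgene UMI. The sum of MAPK targets was 0.27, and 0.15 after thinning. TGF-beta targets (0.26) stayed within their interval under all 5 settings tried. Of 2420 values of single genes, medians and list counts under these settings, 0 changed sign where a fold had been called. No paired analysis was possible because each group holds 1 sample and no test was made. What limits the values is 1 tumor per group: intervals cover counting of UMIs, not animals or dissociations, and genes under 20 CPM rest on few UMIs.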

Other observations

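The genes that lead Stroma4 were also found in the regressed tumor, in another cluster. Stroma10 held 1537 of its 1918 stromal cells. All 25 leading genes of Stroma4 were higher there than in the other Stroma clusters of both other tumors, and 11 of the 25 were at or above the lower of the Stroma4 levels of those tumors. Igfbp6 was at 3874 CPM in Stroma10, Klf5 at 367 CPM, Wnt6 at 196 CPM, Itgb4 at 187 CPM and Krt19 at 87.7 CPM. Sfrp5 was at 35.6 CPM, Spink1 at 12.8 CPM and Fgf1 at 23.3 CPM, all below Stroma4 of either other tumor. The tight junction gene Cldn1 was at 445 CPM. These values are a description across libraries and not a comparison of treatments. Transcripts of the Y chromosome summed to 227 CPM in the regressed stroma outside Stroma4, against 0.522 and 1.80 CPM in that of the untreated and progressed tumor, so the animal's sex and the treatment cannot be told apart here. Haemoglobin RNA, summed over 4 genes, stood at 38.8 CPM in Stroma4 of the untreated tumor, 1.91 CPM in that of the progressed tumor and 1131 CPM in the 20 regressed cells.

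Of 9 small leucine-rich proteoglycans, 1 was higher and 1 lower past the fold in Stroma4 than in the other Stroma clusters of the untreated tumor. In the progressed tumor 2 were higher and 2 lower. The list thus went both ways, with median log2 ratios of 0.007 and -0.37. Over all genes compared, 4.07% were higher and 5.91% lower in the untreated tumor, and 2.77% and 3.45% in the progressed tumor. Aspn, asporin, was at 213 and 251 CPM in untreated and progressed Stroma4, against 112 and 105 CPM in the other Stroma clusters, and Omd, osteomodulin, at 47.8 and 30.3 CPM against 10.9 and 9.19 CPM. Fmod, fibromodulin, was nearly absent, at 2.72 and 1.09 CPM against 52.4 and 24.6 CPM. Thy1, a surface protein of many fibroblasts, was at 181 and 299 CPM against 1382 and 992 CPM. Cxcl12, a chemokine of fibroblasts, was at 218 and 121 CPM against 1661 and 481 CPM. Pi16, a gene of adventitial fibroblasts, was at 22.5 CPM in untreated and 63.5 CPM in progressed Stroma4. Transgene UMIs were found in 19.2% of untreated and 18.2% of progressed Stroma4 cells and in 16.5% and 17.4% of the other stromal cells, at up to 4 UMIs in a Stroma4 cell.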
